A study of Mus musculus with 10 samples.

Results

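The miR-29 family of the mouse was followed through small RNA libraries of splenic B-cells that lacked, or kept, enhancers of the immunoglobulin heavy chain locus. Its members were the 5 rows of the deposited count table that belong to the microRNA class and are named mmu-miR-29a-3p, mmu-miR-29a-5p, mmu-miR-29b-3p, mmu-miR-29c-3p and mmu-miR-29c-5p. They were matched by name, with no measured value in the rule, and they are 5 of 2015 microRNA features, of which 1302 are mature microRNAs, in a table of 6968 small RNA features. B-cells negative for CD43 were prepared from spleens of wt mice, of 3′RR-deficient mice and of Eµ-deficient mice, all on one shared inbred background per the study's methods. The 3′RR is the regulatory region downstream of the heavy chain locus and Eµ is its intronic enhancer, and the methods describe the Eµ deletion as EµMAR, which also takes the flanking matrix attachment regions. Cells were cultured for 2 days per the labels, alone (non-stimulated) or with lipopolysaccharide (LPS) at 5 µg/ml, although the protocol text writes this dose in mg. LPS is a bacterial product that makes mature B-cells proliferate. The study's methods speak of cells taken before stimulation, so whether the non-stimulated cells had been in culture is uncertain, and LPS and culture itself cannot be told apart if they had not. Per the labels, each library pooled the cells of 2 mice. The wt and 3′RR-deficient groups had 2 libraries in each condition and the Eµ-deficient groups 1, which gave 10 libraries, and p-values measure only the spread between these pools.

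A microRNA is cut from a hairpin precursor whose arms give a 5p and a 3p strand, and the strand that is kept guides Argonaute to messenger RNAs that pair with its seed, the bases 2 to 8. The 3p strands of miR-29a, miR-29b and miR-29c share their seed and are known to repress Mcl1, DNA methyltransferases and collagens. In B-lymphoid cells the miR-29 genes are known to be repressed by Myc, a transcription factor that B-cells raise on activation.

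The mature sequences below, from RefSeq on GRCm38.p6, are shown because the 3p strands differ from each other by few bases while the 5p strands do not share a seed. All 5 members matched an entry. Capitals mark the seed.

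miR-29a-3p: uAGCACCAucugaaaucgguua

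miR-29c-3p: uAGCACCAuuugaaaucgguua

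miR-29b-3p: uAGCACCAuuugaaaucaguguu

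miR-29a-5p: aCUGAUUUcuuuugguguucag

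miR-29c-5p: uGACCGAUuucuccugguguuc

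Counted from 1 at the 5′ end, miR-29a-3p and miR-29c-3p differ by 1 substitution, C10U, written from miR-29a to miR-29c. From miR-29a-3p to miR-29b-3p there are 4 substitutions (C10U, G18A, U21G and A22U) and 1 added base at the end. The seed AGCACCA was held by 3 mature mouse microRNAs in the reference, the 3p members themselves. With the last bases in capitals in place of the seed, the end that sets miR-29b apart reads as follows.

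miR-29b-3p: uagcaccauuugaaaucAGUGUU

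The hexamer AGUGUU at the 3′ end is known as a nuclear import element of miR-29b. In the reference 2 of 1679 mature microRNAs (0.119%) end in it, and the other is miR-92b-5p. Except for miR-29c-5p (50.0%), the members are poor in G and C: 34.8% of the bases of miR-29b-3p, 36.4% of miR-29c-3p and miR-29a-5p, and 40.9% of miR-29a-3p. The median over the 1093 mature microRNAs of the table with a sequence was 52.2%.

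The family comes from 2 clusters. On GRCm38, Mir29a (chr6:31062660-31062747) and Mir29b-1 (chr6:31063023-31063093) lie on the minus strand with 275 bases between them. Mir29b-2 (chr1:195037040-195037120) and Mir29c (chr1:195037547-195037634) lie on the plus strand with 426 bases between them. The chromosome 1 hairpins fall in an exon of the noncoding transcript A330023F24Rik and lie antisense to an exonic UTR of Cd46, which codes for a complement regulator. Within the hairpins, miR-29a-3p was placed at chr6:31062673-31062694, miR-29a-5p at chr6:31062711-31062732, miR-29c-3p at chr1:195037600-195037621 and miR-29c-5p at chr1:195037562-195037583. The mature sequence of miR-29b-3p comes from both clusters, and the table places it at chr6:31063025-31063047 only, so its count cannot be assigned to one locus.

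Depth ranged from 3482540 to 18144016 counts per library, and microRNAs took 51.4% to 82.1% of them. The shallowest libraries were the second non-stimulated ones of wt (3482540 counts) and of 3′RR-deficient cells (3756662), which stood apart from their first replicates. The biological coefficient of variation estimated over the 8 wt and 3′RR-deficient libraries was 72.4%. The 4 features listed for lymphocytes (of miR-150, miR-142a and miR-155) were detected in every library. They summed to between 64176 and 233210 CPM without LPS and between 81389 and 147800 CPM with it. This sum does not measure lymphocyte content. In the library with the highest sum, miR-142a-5p alone held 177520 CPM. With LPS, miR-150-5p changed by -2.45 and miR-155-5p by 2.76 on the log2 scale. CPM here are microRNA counts scaled to a common library size by TMM, which sets library sizes by the bulk of features. Features of other cells were present as well. The myeloid miR-223-3p lay between 463 and 4939 CPM without LPS and between 76.2 and 496 CPM with it, and the 3 erythroid features summed to between 2500 and 7919 CPM and between 138 and 3570 CPM. The 2 endothelial features summed to 25.3 to 141 CPM without and 20.8 to 78.6 CPM with LPS, and the 3 stromal ones to 169 to 961 CPM and 18.2 to 936 CPM. The part of these cells in the miR-29 values was not tested, and in such bulk samples fewer cells of a type and less RNA per cell cannot be told apart.

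The family's share of all microRNA counts lay from 1.23% to 2.63% per library, nearly all of it as 3p strands. The 5 members together held 2.01% ± 0.873 (SD, n = 2) of microRNA counts in wt cells without LPS and 1.84% ± 0.529 (SD, n = 2) with LPS. In 3′RR-deficient cells it came to 1.38% ± 0.219 (SD, n = 2) in the absence of LPS and to 1.34% ± 0.0346 (SD, n = 2) in its presence. The single Eµ-deficient libraries gave 2.35% (Wilson 95% interval 2.34 to 2.36) without and 2.09% (2.08 to 2.10) with LPS, and these intervals cover counting error only, as PCR copies were not told apart. Inside the family miR-29a-3p took 57.0% to 59.2% of the counts and miR-29c-3p 38.5% to 41.3% in all 10 libraries. miR-29b-3p took 0.308% to 2.26%. By count, miR-29a-3p ranked between 18 and 29 among mature microRNAs, miR-29c-3p between 20 and 36, and miR-29b-3p between 94 and 207. The 5p strands were traces, at 2 to 219 counts for miR-29a-5p and 9 to 200 for miR-29c-5p.

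miR-29a-3p, the most abundant member, stood at 21145 and 6055 CPM in the wt libraries without LPS and at 11067 and 10769 CPM with it. In 3′RR-deficient cells it was 11594 and 5379 CPM without and 7130 and 11099 CPM with LPS. The Eµ-deficient libraries held 11715 CPM without and 9773 CPM with LPS. The first wt library without LPS was the highest of the 10 and the second libraries without LPS were the lowest, so all LPS values lay inside the range of the non-stimulated ones.

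miR-29c-3p, made from the chromosome 1 cluster, moved alongside it at a lower level. It was 14629 and 4204 CPM in wt cells without LPS and 7735 and 7372 CPM with it, then 7750 and 3811 CPM in 3′RR-deficient cells without and 5080 and 7985 CPM with LPS. In Eµ-deficient cells it was 7609 CPM without and 6868 CPM with LPS. Again the non-stimulated values enclosed the LPS values.

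miR-29b-3p was rarer and moved more. It stood at 663 and 40.6 CPM in wt cells without LPS against 289 and 281 CPM with it. It stood at 246 and 28.4 CPM in 3′RR-deficient cells without LPS against 278 and 287 CPM with it. The Eµ-deficient libraries gave 425 and 386 CPM. With LPS the 4 wt and 3′RR-deficient values lay close together on this scale, but not with total microRNA counts as the scale, where they were 335 and 223 CPM in wt and 292 and 201 CPM in 3′RR-deficient cells. Without LPS the replicates of a genotype differed more than the conditions did, on both scales.

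miR-29a-5p, the strand that is mostly discarded, was 24.6 and 0.666 CPM in wt cells without LPS, the latter resting on 2 counts, and 22.1 and 20.6 CPM with LPS. In 3′RR-deficient cells it was 12.4 and 4.74 CPM without and 9.07 and 10.98 CPM with LPS, and in Eµ-deficient cells 9.84 and 15.8 CPM. miR-29c-5p ranged from 2.66 to 22.5 CPM without and from 3.98 to 13.8 CPM with LPS. For both strands the conditions overlapped.

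**Figure D1:**
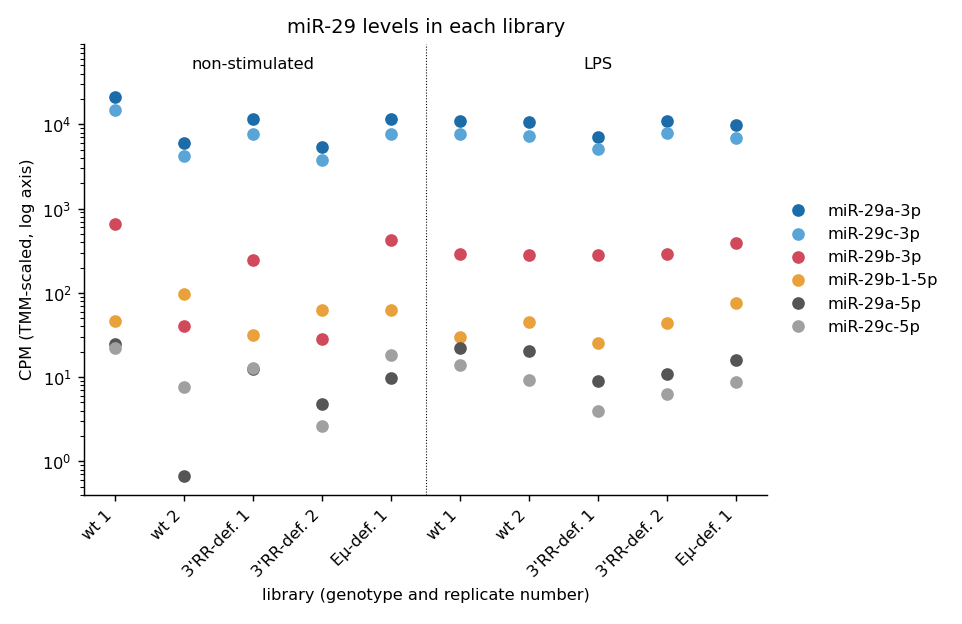
Level of the 5 members and of miR-29b-1-5p in each library, in CPM on a log axis, with non-stimulated libraries on the left of the dotted line and LPS libraries on the right. Each point is 1 library of 2 pooled mice. The second non-stimulated libraries of wt and 3′RR-deficient cells are the only ones in which miR-29b-3p (40.6 and 28.4 CPM) falls below miR-29b-1-5p (97.9 and 62.2 CPM).

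The first comparison asks whether LPS changed the family. Counts of the 8 wt and 3′RR-deficient libraries were fitted with edgeR's quasi-likelihood test, with p-values adjusted by Benjamini-Hochberg over all 720 microRNA features tested, and a feature past an adjusted p of 0.05 is said to be called. All 5 members passed the filter on low counts. None was called for LPS over both genotypes, whereas 157 of the 720 features, 21.8%, were. None had an unadjusted p under 0.05 either, beside 264 features (36.7%). The DESeq2 Wald test also called none of the 5, beside 247 of 720 features. miR-29a-3p gave a log2 fold change of -0.10 (SE 0.47, 95% interval -1.13 to 0.93, adjusted p 0.883) and miR-29c-3p -0.07 (SE 0.46, interval -1.09 to 0.96, adjusted p 0.922). Of all features tested, 96.1% had a larger absolute change than miR-29a-3p and 98.2% a larger one than miR-29c-3p. The intervals still hold changes of about one log2 unit either way. miR-29b-3p gave 0.40 (SE 0.80, interval -1.35 to 2.16, adjusted p 0.748), miR-29a-5p 0.51 (SE 0.77, adjusted p 0.672) and miR-29c-5p -0.49 (SE 0.60, adjusted p 0.581). The median over the members was -0.07, beside 0.07 over all features. Of the 9 features of other cells, 5 were called lower with LPS (the 3 stromal ones, miR-223-3p and miR-486a-5p), and their part in these values was not tested.

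These near-zero values depended on the processing and on the second non-stimulated libraries. With all libraries kept, GC correction gave -0.53 (SE 0.30, adjusted p 0.202) for miR-29a-3p and -0.88 (SE 0.34, adjusted p 0.0679) for miR-29c-3p. With all small RNA classes in the fit they stood at -0.88 (SE 0.62, adjusted p 0.415) and -0.84 (SE 0.61, adjusted p 0.428). Without both second non-stimulated libraries, a setting chosen after seeing the data, the log2 fold change became -0.74 (SE 0.31, adjusted p 0.0928) for miR-29a-3p, -0.69 (SE 0.31, adjusted p 0.116) for miR-29c-3p, -0.62 (SE 0.35, adjusted p 0.20) for miR-29b-3p, -0.34 for miR-29a-5p and -1.23 for miR-29c-5p. All 5 were then on the lower side with LPS and none was called, beside 217 of 824 features. With a replicate block fitted separately in each culture condition, miR-29b-3p was called at 1.26 (SE 0.27, adjusted p 0.000576), beside 336 of 720 features. With GC correction added to that block, miR-29b-3p was not called. miR-29c-3p was, at -0.84 (SE 0.26, adjusted p 0.00416), beside 229 of 501 features. Without the first wt non-stimulated library alone, miR-29a-3p and miR-29c-3p went to 0.19 and 0.23, miR-29b-3p to 1.55 (SE 0.68, adjusted p 0.122) and miR-29a-5p to 1.29. Without the second 3′RR-deficient one alone miR-29b-3p went to -0.15, and without the second wt one miR-29a-5p went to -0.0076. Without the first 3′RR-deficient one miR-29c-5p went to -0.047.

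Within genotypes, 0 of 5 members were called for LPS in wt cells, where 5 of 720 features (0.694%) were, and 0 of 5 in 3′RR-deficient cells, where 7 (0.972%) were. At an unadjusted p under 0.05 the members again numbered 0 in each, beside 21.7% and 19.3% of features. The DESeq2 Wald test called no member in wt cells, beside 98 of 720 features, and none in 3′RR-deficient cells, beside 90 of 720. The difference of the LPS responses between the genotypes was called for 0 of 5 members and for 0 of 720 features (0%), with 0 members and 5 features at an unadjusted p under 0.05. With the replicate block within culture condition, 1 member, miR-29b-3p, was called in 3′RR-deficient cells at 1.70 (SE 0.36, adjusted p 0.00249), in a fit that called 183 features. Without the first wt non-stimulated library, miR-29a-5p stood at 4.63 in wt cells. That fit leaves 1 wt library without LPS, in which miR-29a-5p had 2 counts, so its spread comes from the other groups.

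**Figure D2:**
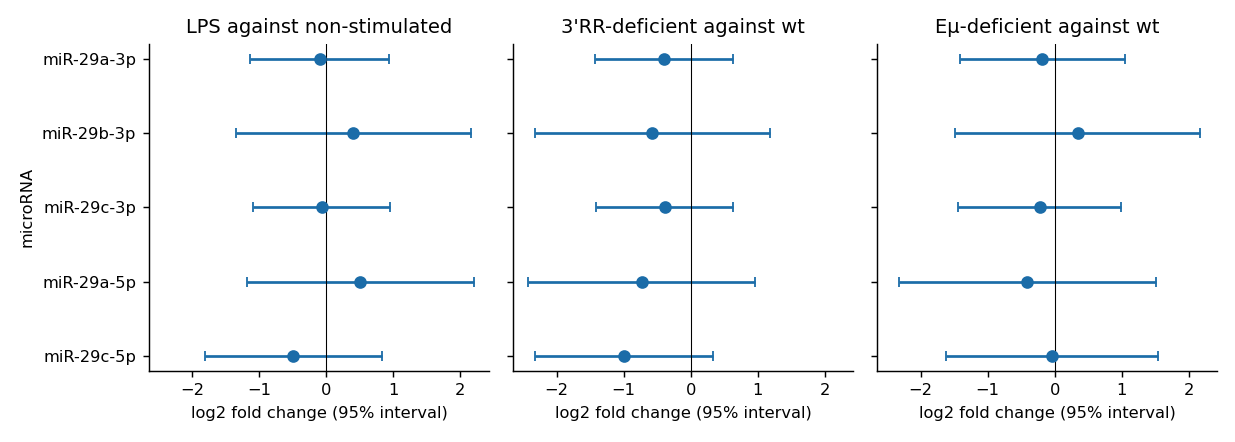
Log2 fold change of each member with its 95% interval for LPS against non-stimulated and 3′RR-deficient against wt (8 libraries) and for Eµ-deficient against wt (10 libraries). All 15 intervals cross 0. The widest are those of miR-29b-3p and miR-29a-5p.

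The second comparison asks whether the family depends on the 3′RR. Over both conditions, 0 of 5 members were called, beside 1 of 720 features (0.139%), and 0 members against 21 features (2.92%) had an unadjusted p under 0.05. The DESeq2 Wald test called no member, beside 2 of 720 features. The fitted values of all 5 were negative, with a median of -0.57 beside 0.00097 over all features: -0.40 (SE 0.47) for miR-29a-3p, -0.38 (SE 0.47) for miR-29c-3p, -0.57 (SE 0.80) for miR-29b-3p, -0.73 (SE 0.77) for miR-29a-5p and -0.99 (SE 0.61) for miR-29c-5p. The adjusted p was 0.997 for each. The members share libraries, so 5 negative values are not 5 separate observations. Without the first wt non-stimulated library, miR-29b-3p went to 0.57 and miR-29a-5p to 0.086, while miR-29a-3p and miR-29c-3p came close to 0, at -0.047 and -0.025. miR-29c-5p lay between -1.56 and -0.66 with each library left out in turn. With LPS, 3′RR-deficient cells had 283 CPM ± 6.39 (SD, n = 2) of miR-29b-3p beside 285 CPM ± 5.70 in wt cells, values that with total count scaling were 247 CPM ± 63.8 and 279 CPM ± 78.7. In the same cells miR-29a-5p stood at 10.03 CPM ± 1.35 beside 21.4 CPM ± 1.03 (SD, n = 2 each). miR-29c-5p stood at 5.11 CPM ± 1.59 beside 11.5 CPM ± 3.23 (SD, n = 2 each). These values rested on 18 to 137 counts per library, with an unadjusted p of 0.37 and 0.23 in edgeR's test. Neither 5p strand was called there, since 0 of 5 members and 0 of 720 features (0%) were called with LPS. At an unadjusted p under 0.05 there were 0 members and 15 features (2.08%), and the same counts were 0 and 9 (1.25%) without LPS, where likewise 0 of 720 features (0%) were called.

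The third comparison asks the same of Eµ. Eµ-deficient mice had 1 library per condition, so they were tested over both conditions in 1 fit with additive terms, on all 10 libraries and 988 features, and not within a condition. It called 0 of 5 members, with 0 at an unadjusted p under 0.05. Beside them, 16 of 988 features (1.62%) were called, 14 higher (1.42%) and 2 lower (0.202%), and 113 (11.4%) were under the unadjusted threshold. With the DESeq2 Wald test no member was called, beside 55 of 988 features. On the log2 scale miR-29a-3p stood at -0.19 (SE 0.58, adjusted p 0.914), miR-29c-3p at -0.23 (SE 0.57, adjusted p 0.900), miR-29b-3p at 0.34 (SE 0.86, adjusted p 0.900), miR-29a-5p at -0.41 (SE 0.90) and miR-29c-5p at -0.04 (SE 0.74). The median was -0.19 for the members and -0.17 for all features. No direction can be read from these, since each of the 5 changed sign without at least 1 of the libraries: without the first wt non-stimulated one, miR-29a-3p went to 0.51, miR-29c-3p to 0.48, miR-29a-5p to 0.60 and miR-29c-5p to 0.47, and without the second miR-29b-3p went to -0.026. Of 9 features of other cells, 1 was called in these same libraries, the stromal miR-199a-3p, which was higher in Eµ-deficient cells by 3.70 (SE 0.83, adjusted p 0.0318). The stromal miR-145a-5p stood at 3.50 and miR-143-3p at 2.82 (adjusted p 0.199 for both), the erythroid miR-486a-5p at 2.87 (0.0908), miR-451a at 2.51 (0.271) and miR-144-3p at 1.03 (0.762), the myeloid miR-223-3p at 2.12 (0.0635), and the endothelial miR-126a-3p and miR-126a-5p at -0.86 (0.702) and 0.11 (0.971). Their part in the miR-29 values was not tested.

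Replicates differed most inside the non-stimulated group. The second wt library without LPS differed from the first by -1.80 for miR-29a-3p, -1.80 for miR-29c-3p and -4.02 for miR-29b-3p on the log2 CPM scale, and the second 3′RR-deficient library by -1.11, -1.02 and -3.10. For miR-29a-5p the differences were -4.69, with 2 counts in the lower library, and -1.34, and for miR-29c-5p -1.52 and -2.13. Medians over the tested features were -0.46 and -0.11. miR-29b-1-5p, the other strand of a miR-29b hairpin, went the opposite way, by 1.07 in wt and 0.97 in 3′RR-deficient cells. The LPS replicates differed by at most 0.65 for any 3p member. Base composition moved with these differences. Of the 29 mature microRNAs with a mean of at least 100 CPM and under 40% G and C, 28 were lower in the second wt library and 29 in the second 3′RR-deficient one, by a median of -3.25 and -2.43. Of the 108 with 40% or more, 69 were lower in each, by a median of -0.76 and -0.64. miR-29b-3p (34.8%) and miR-29c-3p (36.4%) are in the first class and miR-29a-3p (40.9%) in the second. miR-29a-3p and miR-29c-3p differed by nearly the same amount, and miR-29c-3p by less than its class median. This split was chosen after seeing the data, and whether base composition set the miR-29 differences was not tested.

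Ratios within a library do not depend on its scaling, and 4 of them were compared between LPS and non-stimulated libraries by a two-sided exact permutation test within genotype, in which 72 arrangements allow no p below 0.0278. The ratio of miR-29b-3p to miR-29a-3p was -6.02 ± 1.28 (SD, n = 5) on the log2 scale without LPS and -5.03 ± 0.325 (SD, n = 5) with it (exact p 0.139, adjusted over the 4 ratios 0.222). Single non-stimulated values were -5.00 and -7.21 in wt, -5.56 and -7.56 in 3′RR-deficient and -4.79 in Eµ-deficient cells, so the low mean came from the second libraries, and without those the difference of 1.00 became 0.087. The ratio of miR-29a-3p to miR-29a-5p was 10.5 ± 1.29 without and 9.36 ± 0.423 with LPS (exact p 0.0556, adjusted 0.222), and its difference of -1.18 became -0.57 without the second libraries. The ratio of miR-29c-3p to miR-29c-5p was 9.35 ± 0.643 and 9.79 ± 0.50 (exact p 0.222, adjusted 0.222), and its difference of 0.45 became 0.70 without the second libraries. No ratio passed the threshold, but 1 ratio at the smallest p would have an adjusted p of 0.111, so a change in 1 ratio alone could not pass.

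**Figure D3:**
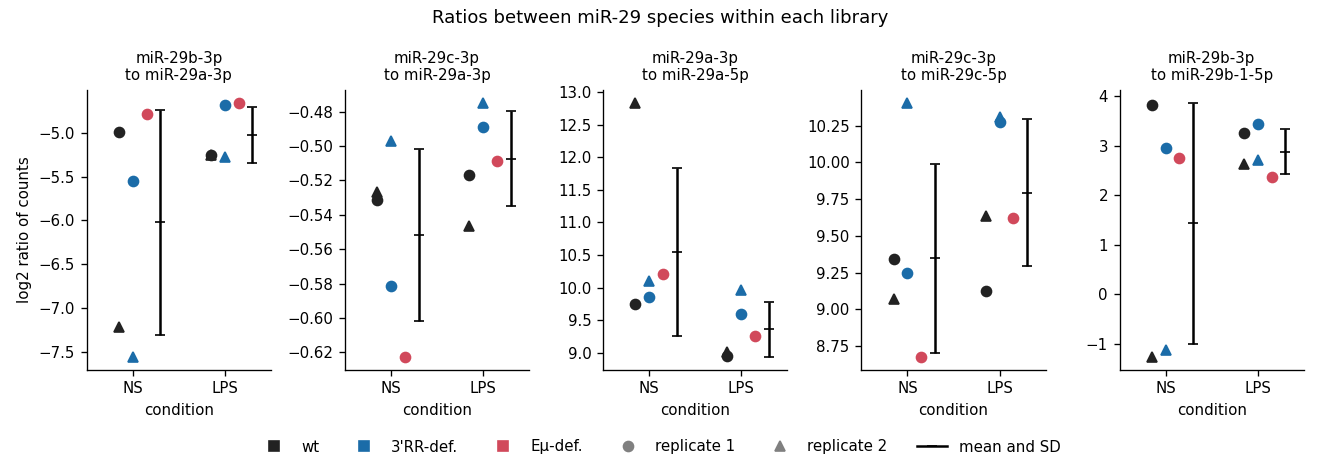
Log2 ratios of counts between miR-29 species in each library, by condition (NS, non-stimulated), with colour for genotype, shape for replicate number, and bars for the mean and SD of 5 libraries; axes differ between panels and do not start at 0. The miR-29c-3p to miR-29a-3p panel spans only -0.62 to -0.48, whereas miR-29b-3p to miR-29b-1-5p spans -1.27 to 3.83.

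The ratio of miR-29c-3p to miR-29a-3p was nearly constant, at -0.55 ± 0.050 (SD, n = 5) in non-stimulated libraries and -0.51 ± 0.027 (SD, n = 5) after LPS (exact p 0.167, adjusted 0.222). Over the 10 libraries it stayed between -0.62 and -0.48, with an SD of 0.0446, while the level of miR-29a-3p itself varied 3.93-fold. Among the 81 mature microRNAs with a mean of at least 1000 CPM this was rank 4 of 3240 pairs in steadiness, where the median SD was 1.17. The pairs that were steadier were miR-486a-5p with miR-486b-5p (0.0017), miR-103-3p with miR-107-3p (0.0102) and miR-378a-3p with miR-378c (0.0146), and the table places the miR-486 pair on opposite strands of a single locus. Of the 8 pairs that differ by 1 base, miR-29a-3p with miR-29c-3p was the second steadiest, and the others ranged from 0.0102 for miR-103-3p with miR-107-3p to 0.870 for miR-30a-5p with miR-30e-5p. How reads that match more than 1 member were counted is not given in the sources used here. The separate levels of miR-29a-3p and miR-29c-3p are uncertain for that reason, and the part of the counting in their ratio was not tested.

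**Figure D4:**
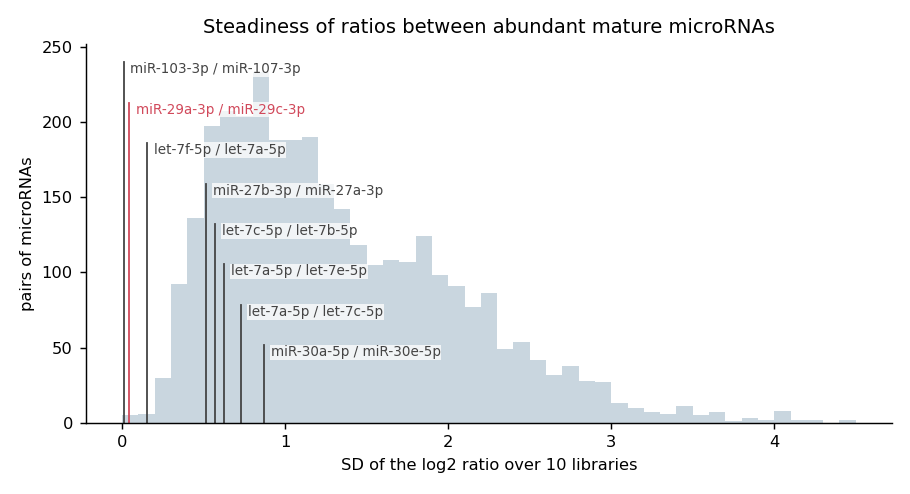
Number of pairs of abundant mature microRNAs (at least 1000 CPM, 3240 pairs) by the SD of their log2 ratio over the 10 libraries. Lines mark the 8 pairs that differ by 1 base, with miR-29a-3p and miR-29c-3p in red at 0.0446, beside a median of 1.17 for all pairs.

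Across the 10 libraries the log2 CPM of miR-29a-3p and miR-29c-3p had a Pearson r of 0.997, and miR-29a-3p and miR-29b-3p had 0.849. With miR-29b-1-5p, miR-29a-3p had -0.28. The microRNAs whose profile was most like the mean of the 3p members, among 192 candidates of at least 100 CPM, were miR-362-5p (r = 0.972), miR-32-5p (0.949), miR-30b-5p (0.943), miR-140-5p (0.940) and miR-3535 (0.937), where the median candidate had 0.321. The 10 libraries include 2 that are shallow and low in all of these, so the values are a description of these libraries only.

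**Figure D5:**
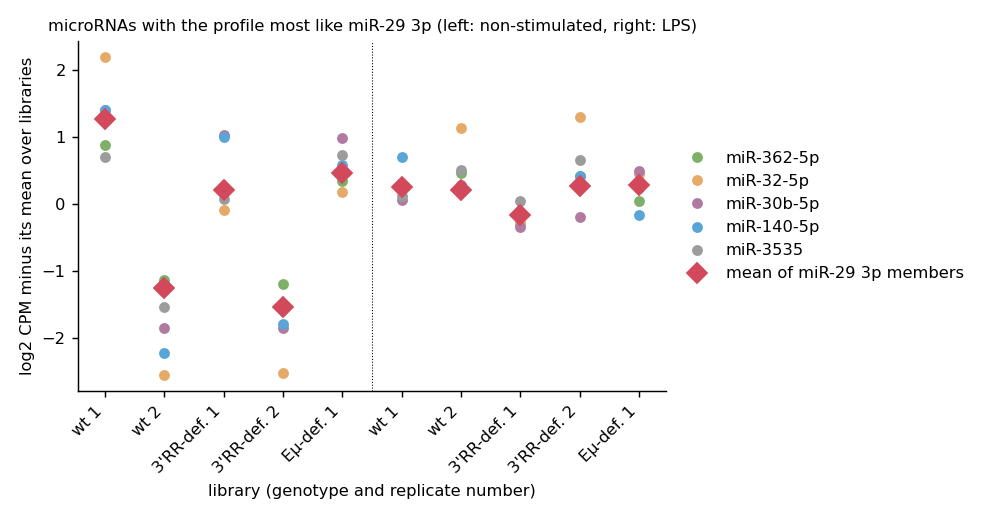
Log2 CPM in each library minus the mean over the 10 libraries, for the mean of the miR-29 3p members (red diamonds) and the 5 microRNAs most like it (circles), with non-stimulated libraries left of the dotted line. All 6 profiles have their lowest values in the second non-stimulated libraries of wt and 3′RR-deficient cells.

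Other rows of the miR-29 loci held few counts. miR-29b-1-5p, from the chromosome 6 cluster, ranged from 31.6 to 97.9 CPM without and from 25.7 to 74.9 CPM with LPS (log2 fold change -0.73, SE 0.46, adjusted p 0.282). miR-29b-2-5p, from chromosome 1, had 5 to 67 counts without and 4 to 51 with LPS (-1.11, SE 0.74, adjusted p 0.314). The hairpin row of Mir29b-1, which overlaps the lincRNA Gm27019, held 76, 0, 2, 1 and 1 counts in the non-stimulated libraries and 69, 107, 27, 99 and 251 with LPS. In CPM these were at most 8.53 without LPS and between 5.97 and 22.0 with it, so the conditions overlapped by 1 library, the first wt one (unadjusted p 0.0132, adjusted p 0.0573). The hairpin row of Mir29a held 86 counts in the Eµ-deficient library without LPS and 16 in the one with it, against 0 to 7 in each of the other 8 libraries (adjusted p 0.308 for Eµ-deficient against wt). The row of Gm27019 itself held 38 counts in the first wt library without LPS and 0 to 5 in each of the others. The Mir29b-2 row had 0 counts throughout and the Mir29c row 2 counts in 1 library.

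A list of 17 other microRNAs that are known to be repressed by Myc in B-lymphoid cells was set beside the family. All 17 were tested, and for LPS over both genotypes 1 was called higher and 2 lower, beside 95 (13.2%) and 62 (8.61%) of the 720 features. Their median log2 fold change was -0.50, that of the members -0.07 and that of all features 0.07. miR-150-5p, which restrains Myb in mature lymphocytes, fell by 2.45 (SE 0.42, adjusted p 0.00392), and let-7d-5p fell by 1.56 (SE 0.50, adjusted p 0.0483). miR-34a-5p, a p53 target that acts on Foxp1 in B-cells, rose by 2.41 (SE 0.42, adjusted p 0.00408). The other 14 were not called. For the 3′RR over both conditions no member of the list was called, beside 1 of 720 features (0.139%). Its median there was 0.19, beside 0.00097 over all features. For Eµ over both conditions none was called, beside 16 of 988 features (1.62%), and the median was -0.12, beside -0.17.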

How the data were processed

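Per the labels, total RNA was made into libraries with the NextFlex small RNA kit (17 PCR cycles) and read at 75 nt. The submitters' processing notes name cutadapt 1.2.1, Bowtie2 and mm10. The values deposited by the authors are raw counts of reads per small RNA feature and library. The counting tool and the handling of reads with several matches are not given in the sources used here. No test for these counts is stated in the study. Counts of the microRNA class were fitted with edgeR 4.0.16 (TMM, filterByExpr by group, quasi-likelihood F-test, Benjamini-Hochberg over all tested features) in R 4.3.3, with DESeq2 1.42.0 as the alternative. CPM are TMM-scaled, 2 prior counts entered the log2 values of each library, and ratios added 0.5 to each count. Correlations used log2 CPM. Positions were compared with GENCODE M21. Values were described for the 5 members, all other rows of their loci, a list of 17 microRNAs repressed by Myc with its 3 of smallest p in the LPS comparison, and the 5 microRNAs of most similar profile. Alternatives covered scaling, filters, feature classes, GC correction (loess span 0.75), the replicate number as a block and each library left out. The calculations were tested on simulated data. The members and lists were chosen with earlier results of these data known. Replicate differences correlated between groups at -0.29 to 0.66 over 720 features, so replicate numbers were not treated as pairs.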

Additional observations from a re-analysis of the deposited data

How the results depend on the processing

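In the main setting and in all but 4 alternative fits, 0 of the 5 members were called in any of the 8 comparisons. The 4 fits called 1 member each. With a replicate block within culture condition, miR-29b-3p was called for LPS at 1.26 (SE 0.27, adjusted p 0.000576) over both genotypes, beside 336 of 720 features. In 3′RR-deficient cells it was called at 1.70 (adjusted p 0.00249), beside 183 of 720 features. With GC correction added to that block, 1 member, miR-29c-3p, was called over both genotypes at -0.84 (adjusted p 0.00416), beside 229 of 501 features. The remaining fit, LPS in wt cells without the first wt non-stimulated library, leaves 1 wt library without LPS. Its call, miR-29a-5p, rests on the spread of the other groups. Between wt and 3′RR-deficient cells, same-numbered replicates deviated alike without LPS (r = 0.66) and little so with LPS (0.11). Across conditions they did not (-0.29 to -0.059), so the numbers do not pair samples across conditions. The main fits hold no term for the deviation shared without LPS. In 3′RR-deficient cells the replicate block called 11 of all features and the block with crossed numbers 83, against 7 with no block, each with 0 members. The block within culture condition called 183 there, with 1 member, miR-29b-3p. Such counts do not show whether the numbers pair samples within a condition.

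Signs changed for LPS over both genotypes with all small RNA classes (miR-29a-5p -0.33, miR-29b-3p -0.47), with the replicate block (miR-29a-3p 0.055, miR-29c-3p 0.082, and the same rounded values within culture condition), and without both second non-stimulated libraries (miR-29a-5p -0.34, miR-29b-3p -0.62). For Eµ they changed with total count scaling (miR-29a-3p 0.21, miR-29a-5p 0.066, miR-29c-3p 0.17, miR-29c-5p 0.31), with a 10 CPM filter (0.085 for miR-29a-3p, 0.048 for miR-29c-3p, 0.20 for miR-29c-5p), with mature microRNAs alone (0.0088 for miR-29a-3p, 0.15 for miR-29c-5p), with wt and Eµ-deficient libraries alone (0.029 and 0.17), and with a replicate block for miR-29b-3p (-0.15, and -0.033 within culture condition). miR-29c-5p also changed sign with DESeq2 size factors (0.098), no filter (0.11), the DESeq2 Wald test (0.094), all classes (0.14) and GC correction (0.098).

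Leaving out 1 library at a time, LPS over both genotypes ranged from -0.40 to 0.19 for miR-29a-3p, -0.36 to 0.23 for miR-29c-3p, -0.15 to 1.55 for miR-29b-3p, -0.0076 to 1.29 for miR-29a-5p and -0.85 to -0.047 for miR-29c-5p. The LPS differences of the log2 ratios ranged from 0.61 to 1.30 (miR-29b-3p to miR-29a-3p), 0.027 to 0.058 (miR-29c-3p to miR-29a-3p), -1.39 to -0.62 (miR-29a-3p to miR-29a-5p) and 0.28 to 0.71 (miR-29c-3p to miR-29c-5p). For the 3′RR, miR-29a-5p ranged from -1.14 to 0.086 and miR-29b-3p from -1.05 to 0.57. For Eµ the ranges were -0.44 to 0.51 (miR-29a-3p), -0.47 to 0.48 (miR-29c-3p), -0.026 to 1.88 (miR-29b-3p), -0.80 to 0.60 (miR-29a-5p) and -0.38 to 0.48 (miR-29c-5p). The causes were not tested. Over all features, LPS called 71 to 336 in place of 157, LPS in wt cells 0 to 182 in place of 5, LPS in 3′RR-deficient cells 0 to 183 in place of 7, Eµ 1 to 156 in place of 16, and the 3′RR 0 to 10 in place of 1 over both conditions, 0 to 9 with LPS and 0 to 1 without. Depth limits the 5p strands most, with 2 and 9 counts in their lowest libraries.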
